A study of Mus musculus with 9 samples.

Results

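RNA-Seq was used to follow 10 imprinted genes of the growth network, Cdkn1c, Dlk1, Grb10, Igf2r, Meg3, Mest, Ndn, Peg3, Peg10 and Plagl1, in mouse embryonic fibroblasts (MEFs). They were taken by gene symbol from the 24341 genes with a deposited read count, and all 10 were found. MEFs are cells grown out of the connective tissue of mouse embryos. The 9 samples were labelled C57BL/6 and fell into 3 genotypes with 3 samples each, WT, Sirt6-/- and Atm-/-, all grown in DMEM with 10% FBS and with no other treatment named. SIRT6 is a deacylase that acts on histones, and ATM is the kinase that starts the response to DNA double-strand breaks. The study was about ATM in aging and lifespan, and its RNA-Seq addressed how ATM and SIRT6 act on glycolysis.

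At an imprinted gene 1 parental copy is silenced. Which copy is set by DNA methylation laid down in the egg or the sperm and kept through later cell divisions. Imprinted genes lie in clusters that share an imprinting control region, and many of them act on fetal growth, with paternally expressed genes tending to promote it and maternally expressed genes tending to restrain it. Several of them are known to be expressed together in growing tissues, with the zinc finger factor PLAGL1 among their regulators, and to be switched down after birth. The read counts used here add up reads from both parental copies, so they give the level of each gene and not the allele it came from.

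The line labels were compared with the RNA before the imprinted genes. Sirt6 had 4 to 7 reads in the Sirt6-/- samples and 402 to 487 in WT. Atm had 3443 to 3768 reads in the samples labelled Atm-/- and 1536 to 1627 in WT, which goes against the label at the level of the whole gene, and counts per gene do not show which exons were read. These samples are therefore called the samples labelled Atm-/- throughout, also where a direction is drawn from them. Trp53 had 806 to 946 reads in them and 6563 to 7108 in WT. The labels list MEFs from wildtype, Sirt6-/-, P53-/- and Atm-/-P53-/- mice without tying the last 2 to a sample, and the study names immortalized MEF lines, Atm-/-; p53-/- and Sirt6-/-, that came from separate outside laboratories, without saying which cells were sequenced. In all 3 comparisons genotype cannot be told apart from line of origin, nor, in those against WT, from immortalization, and in the samples labelled Atm-/- it cannot be told apart from p53 status either. Nothing says that the 3 samples of a genotype were separate cultures, so the p-values measure the spread between these samples, which may be technical.

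The cells kept the RNA of fibroblasts, but not in equal amounts. The summed level of 8 fibroblast markers was 18429 to 21716 CPM (reads per 1000000 counted reads, with TMM scaling between samples) in WT, 15601 to 16163 in Sirt6-/- and 5771 to 5905 in the samples labelled Atm-/-, with none of the 8 at 0, although Thy1 had a mean of 0.470 CPM in Sirt6-/- against 24.4 in WT. Of 5 chondrocyte markers, Matn1 and Col9a1 were at 0 in every genotype, and the sum was 5.37 to 5.78 CPM in WT, 267 to 318 in Sirt6-/-, nearly all of it Col2a1, and 71.1 to 87.2 in the samples labelled Atm-/-, most of it Acan. The 5 neural and glial markers summed to 4.44 to 4.73 CPM in WT, 78.3 to 86.2 in Sirt6-/- and 105 to 117 in the samples labelled Atm-/-, the 6 epithelial ones to 23.0 to 25.7, 20.4 to 24.1 and 88.2 to 95.6, and the 5 adipocyte ones to 5.14 to 7.0, 17.3 to 21.7 and 19.7 to 23.7. The sums reached at most 12.5 CPM for endothelial, 22.5 for macrophage and 1.59 for skeletal muscle markers. In bulk RNA, fewer cells of a type and less RNA per cell cannot be told apart, and the part that these cell types play in the results below was not tested.

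The imprinted genes differed between all 3 genotypes, and not in 1 direction. In Sirt6-/-, Cdkn1c, Ndn, Mest, Plagl1, Peg10 and Meg3 were higher than in WT, whereas Grb10, Dlk1, Peg3 and Igf2r were lower. In the samples labelled Atm-/-, Ndn, Plagl1, Dlk1 and Mest were higher than in WT, whereas Meg3, Peg3, Grb10, Peg10 and Igf2r were lower. The sizes ran from a 1.2-fold difference, for Igf2r between the samples labelled Atm-/- and Sirt6-/-, to a 179-fold one, for Ndn between Sirt6-/- and WT, leaving aside Cdkn1c, which had 0 reads in WT. Meg3, Dlk1 and Peg10 changed in opposite directions in the 2 comparisons with WT, which share the same 3 WT samples.

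**Figure D1:**
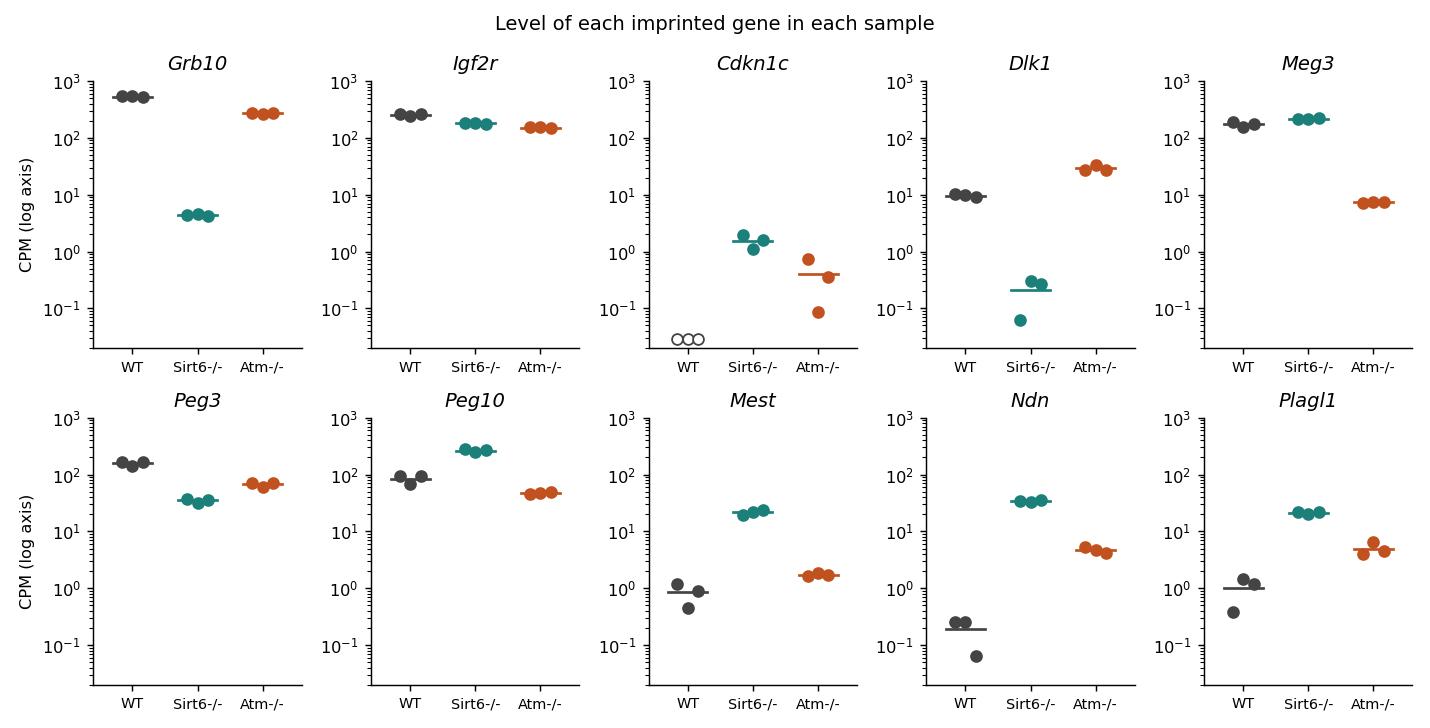
Level of each gene in each sample in TMM-scaled CPM (log axis), with 3 points and a line at the mean for each genotype. The open points of Cdkn1c are WT samples with 0 reads, drawn near the level of 1 read. For every gene the 3 genotypes sit at separate levels, and Ndn, Dlk1 and Grb10 span more than 100-fold between the lowest and the highest genotype.

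Every gene was tested with edgeR's quasi-likelihood test, fitted over all genes with enough reads, and called at a Benjamini-Hochberg adjusted p under 0.05. Of the 10 genes, 9 had enough reads for the comparison of the samples labelled Atm-/- with WT, where 4 were called higher and 5 lower. The background was high, since 68.4% of all 13283 genes tested were called in this comparison, 34.7% higher and 33.6% lower. Between Sirt6-/- and WT all 10 genes were tested, with 6 called higher and 4 lower, where 76.6% of 13206 genes were called, 39.2% higher and 37.4% lower. In the samples labelled Atm-/- 3 of 10 were higher and 7 lower than in Sirt6-/-, where 75.8% of 13460 genes were called, 38.0% higher and 37.8% lower. A call alone therefore says little about these 10 genes, and the size of the differences is given beside it.

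A change of at least 2-fold was found for 6 of the 9 genes tested between the samples labelled Atm-/- and WT (22.5% of all genes tested), for 8 of 10 between Sirt6-/- and WT (29.3%) and for 8 of 10 between the samples labelled Atm-/- and Sirt6-/- (25.5%). The median absolute log2 fold change of the imprinted genes was 1.22, 4.54 and 2.67 in these 3 comparisons, beside 0.40, 0.54 and 0.49 over all genes tested. Their median signed log2 fold change was -0.77, 0.99 and -2.02, beside 0.02, 0.02 and 0.0021. The 10 genes were chosen with earlier results of these data known, and how far that choice raised these sizes was not tested. Setting them beside all genes is thus a description only. The samples of the 2 genotypes did not overlap for any of the 10 genes in any comparison, which was also true of 72.6%, 79.0% and 78.2% of all genes tested. When samples were scaled by their library totals alone, the median log2 fold change of all genes moved by 0.164 between the samples labelled Atm-/- and WT, and the calls moved from 4611 higher and 4469 lower to 6156 and 3326, while each of the 9 imprinted genes tested kept its direction and call.

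**Figure D2:**
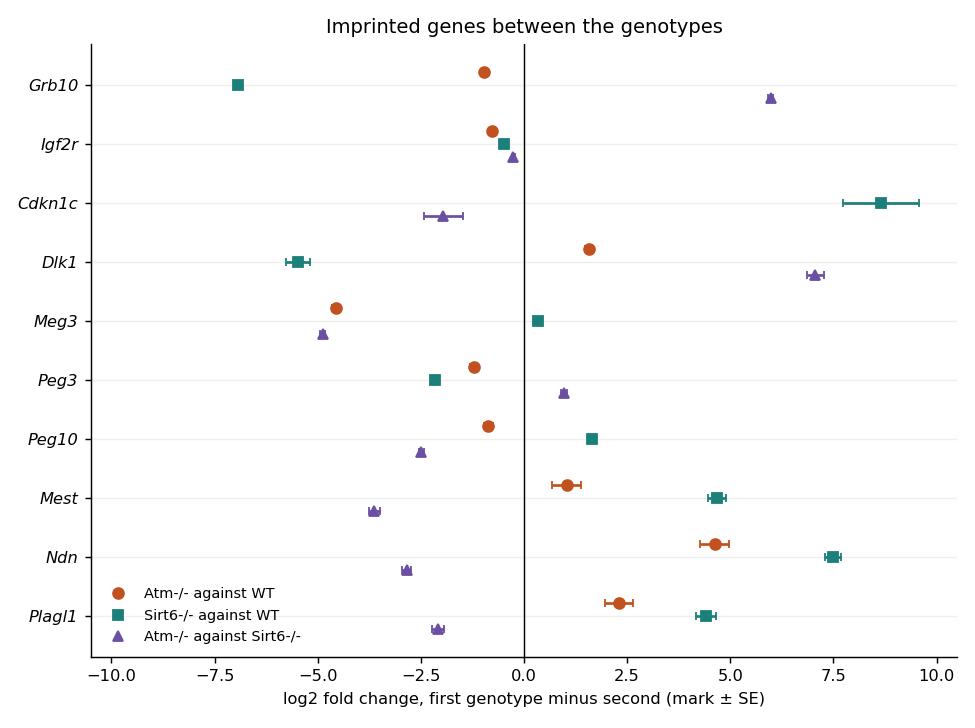
Log2 fold change of each imprinted gene (horizontal axis, first genotype minus second, mark ± SE of the edgeR fit) in the 3 comparisons of 3 samples against 3. Cdkn1c has no mark between the samples labelled Atm-/- and WT because it had too few reads to be tested. Marks to the right of 0 are genes higher in the first genotype, such as Ndn at 7.48 for Sirt6-/- against WT, and marks to the left are genes lower in it, such as Grb10 at -6.94.

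The start regions of these genes carry the letters by which 2 imprint factors are known to bind, in some cases and not in others. ZFP57, a zinc finger protein that keeps imprints after fertilization, recognises TGCCGC when it is methylated, and PLAGL1 recognises GGGGCCCC. RefSeq promoter windows of 300 bases on GRCm38.p6, the same coordinates as mm10, were found for 8 of the 10 genes (12 windows in all). Cdkn1c and Peg10 had no entry. On either strand, TGCCGC was found in 5 of the 12 windows, from 4 genes, beside 11.6% of all 32851 windows, and GGGGCCCC in 1 window, that of Peg3, beside 1.08%. The 5 windows include 2 of Mest that start 3 bases apart and hold the same matches, so they are 4 separate stretches. The first matching window of each of these 5 genes is shown, since these are the starts where an imprint factor's letters occur, from 250 bases before the start to 30 after it, read on the gene's strand. Capitals mark the matches, and GCGGCA is TGCCGC read from the other strand. The windows are chr12:109540746-109541025 (+) for Meg3, chr11:12037391-12037670 (-) for Grb10, chr6:30737800-30738079 (+) for Mest, chr10:13090582-13090861 (+) for Plagl1 and chr7:6730390-6730669 (-) for Peg3.
Meg3: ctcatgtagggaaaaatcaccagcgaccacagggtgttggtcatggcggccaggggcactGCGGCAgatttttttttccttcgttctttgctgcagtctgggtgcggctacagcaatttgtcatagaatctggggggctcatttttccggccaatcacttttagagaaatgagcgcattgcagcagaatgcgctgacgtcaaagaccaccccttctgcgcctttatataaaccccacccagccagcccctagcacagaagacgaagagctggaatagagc
Grb10: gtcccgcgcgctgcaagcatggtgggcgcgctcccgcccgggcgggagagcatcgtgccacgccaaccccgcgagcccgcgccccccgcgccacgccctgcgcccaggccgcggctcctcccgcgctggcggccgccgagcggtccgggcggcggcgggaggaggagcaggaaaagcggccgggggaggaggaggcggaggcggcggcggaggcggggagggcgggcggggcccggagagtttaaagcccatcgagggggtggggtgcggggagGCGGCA
Mest: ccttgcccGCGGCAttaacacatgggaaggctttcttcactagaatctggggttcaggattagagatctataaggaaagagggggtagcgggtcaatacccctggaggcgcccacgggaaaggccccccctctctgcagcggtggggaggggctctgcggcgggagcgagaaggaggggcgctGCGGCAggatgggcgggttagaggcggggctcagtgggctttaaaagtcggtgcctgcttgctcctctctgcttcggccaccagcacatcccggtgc
Plagl1: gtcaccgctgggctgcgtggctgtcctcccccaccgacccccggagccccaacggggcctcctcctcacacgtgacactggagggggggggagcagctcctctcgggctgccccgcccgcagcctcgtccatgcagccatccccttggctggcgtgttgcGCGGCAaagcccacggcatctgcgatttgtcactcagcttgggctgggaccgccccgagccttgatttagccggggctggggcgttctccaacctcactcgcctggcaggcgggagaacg
Peg3: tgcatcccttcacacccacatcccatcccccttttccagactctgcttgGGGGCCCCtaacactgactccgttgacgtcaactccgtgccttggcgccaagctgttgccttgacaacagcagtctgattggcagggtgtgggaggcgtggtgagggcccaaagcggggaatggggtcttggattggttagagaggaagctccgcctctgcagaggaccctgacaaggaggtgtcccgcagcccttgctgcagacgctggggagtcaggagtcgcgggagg
The windows differed in their CG dinucleotides, the sites that DNA methylation uses. The 300-base window of Grb10 shown above held 45 CG, that of Plagl1 26, that of Mest 17 and those of Meg3 and Peg3 13 each, beside a median of 7 over all windows. The window of Igf2r held 34, with neither motif. Fewer were held by the windows of Ndn (11) and Dlk1 (9) and by the other windows of Grb10 (9), Mest (8) and Meg3 (1) without a motif. TGCCGC itself contains a CG, and how far its matches follow the CG content of the windows was not tested. Of the 4 genes with TGCCGC, Grb10 and Meg3 were lower and Mest and Plagl1 higher in the samples labelled Atm-/- than in WT, and in Sirt6-/- only Grb10 was lower. A match to these letters is a description of the sequence and no measure of binding or methylation, which were not measured here.

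Grb10 encodes an adaptor that binds the insulin and IGF1 receptors and restrains their signal, and it is expressed from the maternal copy in most tissues (chromosome 11 from 11930499 to 12037428 of GRCm38). Its levels were 536, 540.3 and 526 CPM in WT, 4.33, 4.51 and 4.17 in Sirt6-/- and 279, 268 and 273 in the samples labelled Atm-/-. The samples of each genotype lay close together, with WT high, the samples labelled Atm-/- between and Sirt6-/- near the bottom of the scale. Grb10 was thus 123-fold lower in Sirt6-/- than in WT (log2 fold change -6.94, SE 0.06, edgeR's adjusted p = 2.94e-18). In the samples labelled Atm-/- it was 1.97-fold lower than in WT (log2 fold change -0.97, SE 0.04) and 63.3-fold higher than in Sirt6-/- (log2 fold change 5.98, SE 0.06). Ddc, the neighbour that makes dopamine and serotonin from their precursors, had a mean of 29.7 CPM in WT and 2 to 4 reads in every sample of the other genotypes. Cobl, an actin nucleator on the other side of Grb10, was at 85.9 CPM in WT, 9.92 in Sirt6-/- and 6.89 in the samples labelled Atm-/-. Both neighbours were therefore low in both lines, while Grb10 kept a high level in the samples labelled Atm-/-.

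Igf2r encodes the receptor that carries IGF2 to the lysosome for breakdown and is expressed from the maternal copy (chromosome 17 from 12682406 to 12769706). Its levels were 268, 242 and 259 CPM in WT, 185, 184 and 178 in Sirt6-/- and 152, 153 and 149 in the samples labelled Atm-/-. The order WT, Sirt6-/-, samples labelled Atm-/- held without overlap, but with small steps. Igf2r was 1.41-fold lower in Sirt6-/- (log2 fold change -0.49, SE 0.05, edgeR's adjusted p = 3.11e-07) and 1.70-fold lower in the samples labelled Atm-/- (log2 fold change -0.77, SE 0.05) than in WT. Between Sirt6-/- and WT its change was larger than that of 47.0% of all genes tested. Airn, the paternally expressed noncoding RNA that starts inside Igf2r on the other strand, was also lower in both lines, at 4.71 CPM in WT, 1.77 in Sirt6-/- (log2 fold change -1.41) and 2.18 in the samples labelled Atm-/- (-1.12). The files do not say whether strand was used in counting, so reads of the overlapping parts of these genes cannot be told apart.

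Cdkn1c encodes p57, an inhibitor of cyclin-dependent kinases that stops growth, and is expressed from the maternal copy (chromosome 7 from 143458339 to 143461059). It had 0 reads in all 3 WT samples, 64, 36 and 53 reads in Sirt6-/- and 26, 3 and 12 in the samples labelled Atm-/-. All samples of both lines were above WT, at low counts, and the samples labelled Atm-/- spread widely. Against a floor of 3 reads over the WT group, Cdkn1c was at least 49.1-fold higher in Sirt6-/- and at least 12.5-fold higher in the samples labelled Atm-/-. The comparison of Sirt6-/- with WT was called by edgeR's test (adjusted p = 2.12e-06), and the other had too few reads for the test. Cdkn1c was 3.88-fold lower in the samples labelled Atm-/- than in Sirt6-/- (log2 fold change -1.96, SE 0.48, edgeR's adjusted p = 9.68e-04), and without replicate 1 of the samples labelled Atm-/-, which held 26 of their 41 reads, the log2 fold change was -2.81. Its exons share 625 bases with the antisense gene Gm44732, so that its reads cannot be assigned with certainty. Kcnq1ot1, the paternal noncoding RNA of the same cluster, was at 7.17 CPM in WT, 33.5 in Sirt6-/- (log2 fold change 2.22) and 13.5 in the samples labelled Atm-/- (0.91).

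The neighbouring IGF2 cluster, on the same chromosome, behaved differently. Igf2, the fetal growth factor that IGF2R clears, had 26, 27 and 23 reads in WT, 19, 41 and 23 in Sirt6-/- and 12520, 12827 and 12652 in the samples labelled Atm-/-. The samples labelled Atm-/- stood far above all others, with a mean of 367 CPM (log2 fold change 8.82 against WT, SE 0.08, edgeR's adjusted p = 4.63e-18), whereas Sirt6-/- and WT overlapped. H19, the maternally expressed noncoding RNA that shares enhancers with Igf2, had 124, 172 and 115 reads in the samples labelled Atm-/- and 2 to 12 elsewhere (log2 fold change 3.67 against WT). Cd81, a tetraspanin, and Osbpl5, a lipid transfer protein, were lower than in WT by log2 fold changes of -0.74 and -0.67 in the samples labelled Atm-/- and of -0.30 and -0.49 in Sirt6-/-.

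Dlk1 encodes a transmembrane protein related to Notch ligands that holds back adipocyte differentiation, and is expressed from the paternal copy (chromosome 12 from 109452485 to 109463336). Its levels were 10.3, 9.69 and 8.98 CPM in WT, 26.8, 32.7 and 27.3 in the samples labelled Atm-/- and 0.0614, 0.309 and 0.270 in Sirt6-/-, where it had 2, 10 and 9 reads. The samples labelled Atm-/- were high, WT between and Sirt6-/- near the limit of detection. Dlk1 was 44.3-fold lower in Sirt6-/- than in WT (log2 fold change -5.47, SE 0.29, edgeR's adjusted p = 2.8e-10) and 2.98-fold higher in the samples labelled Atm-/- (log2 fold change 1.58, SE 0.10). This made Dlk1 134-fold higher in the samples labelled Atm-/- than in Sirt6-/- (log2 fold change 7.06, SE 0.21).

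Meg3 is a noncoding RNA from the maternal copy of the same cluster, transcribed away from Dlk1 (chromosome 12 from 109540996 to 109571729). Its levels were 191, 153 and 176 CPM in WT, 216, 213 and 224 in Sirt6-/- and 7.18, 7.45 and 7.41 in the samples labelled Atm-/-. The samples labelled Atm-/- were low and nearly equal, and Sirt6-/- lay a little above WT, whose lowest sample was replicate 2. Meg3 was 23.7-fold lower in the samples labelled Atm-/- than in WT (log2 fold change -4.57, SE 0.09, edgeR's adjusted p = 1.05e-14) and 1.26-fold higher in Sirt6-/- (log2 fold change 0.33, SE 0.07, edgeR's adjusted p = 3.7e-04). The latter change was larger than that of 34.1% of all genes tested. Dlk1 and Meg3, which come from opposite parental copies, thus moved in opposite directions from WT in each line, with the large fall on Meg3 in the samples labelled Atm-/- and on Dlk1 in Sirt6-/-.

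In the samples labelled Atm-/- the other maternal noncoding RNAs of the cluster went with Meg3. In Sirt6-/-, where Meg3 was called higher, Rian and Mirg were not called (log2 fold changes of -0.11 and -0.16). Rian, host of small nucleolar RNAs, was at 269 CPM in WT and 249 in Sirt6-/- (not called) and at 9.59 in the samples labelled Atm-/- (log2 fold change -4.82, SE 0.09). Mirg, host of microRNAs, was at 7.09, 6.32 (not called) and 0.270 CPM (log2 fold change -4.70 in the samples labelled Atm-/-, SE 0.24). Meg3, Rian and Mirg follow each other on 1 strand, and their log2 fold changes in the samples labelled Atm-/- ran from -4.57 to -4.82. Rtl1, a paternally expressed retrotransposon-derived gene antisense to them, had 26, 18 and 27 reads in WT, 16, 27 and 6 in Sirt6-/- and 0, 1 and 0 in the samples labelled Atm-/-, and its gene span overlaps both Meg3 and Rian. At the far end, Dio3, which inactivates thyroid hormone, rose in both lines, from 0.127 CPM in WT to 6.41 in Sirt6-/- (log2 fold change 5.62) and 0.712 in the samples labelled Atm-/- (2.45). Begain, before Dlk1, was at 0.105 CPM in WT and 2.45 in Sirt6-/- (log2 fold change 4.49, or 5.17 without WT replicate 1) and was not tested between the samples labelled Atm-/- and WT.

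Peg3 encodes a large zinc finger protein from the paternal copy, known for its part in fetal growth and maternal care (chromosome 7 from 6703892 to 6730462). Its levels were 167, 140 and 168 CPM in WT, 37.5, 32.2 and 36.1 in Sirt6-/- and 72.0, 60.6 and 72.0 in the samples labelled Atm-/-. WT was high and Sirt6-/- low, with no overlap. Peg3 was 4.48-fold lower in Sirt6-/- (log2 fold change -2.16, SE 0.08, edgeR's adjusted p = 2.87e-12) and 2.33-fold lower in the samples labelled Atm-/- (log2 fold change -1.22, SE 0.08) than in WT. Usp29, a paternal neighbour transcribed from the same start region in the other direction, had 44, 28 and 47 reads in WT, 4, 2 and 3 in Sirt6-/- (log2 fold change -3.72) and 27, 31 and 21 in the samples labelled Atm-/-, which was not called. Zim1, a maternal zinc finger gene beside Peg3, had 22, 26 and 16 reads in WT, 0, 2 and 0 in Sirt6-/- and 10, 15 and 8 in the samples labelled Atm-/-, where its call (log2 fold change -1.09, edgeR's adjusted p = 0.042) was lost in 9 of 12 alternatives, library totals among them. In Sirt6-/- all 3 genes of this cluster that could be tested were lower than in WT.

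Peg10 encodes a retrotransposon-derived protein from the paternal copy that is needed for the placenta (chromosome 6 from 4747306 to 4760517). Its levels were 92.8, 67.7 and 94.0 CPM in WT, 282, 245 and 266 in Sirt6-/- and 45.0, 47.2 and 48.4 in the samples labelled Atm-/-. Sirt6-/- was high and the samples labelled Atm-/- low, with WT between and its replicate 2 the lowest of the group. Peg10 was 3.12-fold higher in Sirt6-/- (log2 fold change 1.64, SE 0.10, edgeR's adjusted p = 1e-09) and 1.82-fold lower in the samples labelled Atm-/- (log2 fold change -0.86, SE 0.10, edgeR's adjusted p = 2.45e-06) than in WT. Sgce, the sarcoglycan gene that shares its start region with Peg10 and is also paternal, was at 32.5, 55.8 and 27.1 CPM in WT, Sirt6-/- and the samples labelled Atm-/-. Its rise in Sirt6-/- had a log2 fold change of 0.78, and its fall in the samples labelled Atm-/- (log2 fold change -0.27) was not called with library totals in place of TMM (-0.10, edgeR's adjusted p = 0.208). Ppp1r9a, a neuronal scaffold of protein phosphatase 1, rose in Sirt6-/- from 4, 0 and 1 reads in WT to 213, 141 and 228 (log2 fold change 6.71, or 8.21 without WT replicate 1). Pon3, an esterase further along, went the other way, at 18.5 CPM in WT, 0.386 in Sirt6-/- (log2 fold change -5.57) and 7.40 in the samples labelled Atm-/- (-1.33).

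Mest encodes a hydrolase-like protein of mesodermal cells from the paternal copy (chromosome 6 from 30733506 to 30748466). Its levels were 1.19, 0.448 and 0.889 CPM in WT, 19.1, 22.2 and 23.7 in Sirt6-/- and 1.64, 1.88 and 1.68 in the samples labelled Atm-/-. Sirt6-/- was high, and the other 2 genotypes were low and close to each other, although their samples did not overlap. Mest was 25.6-fold higher in Sirt6-/- than in WT (log2 fold change 4.68, SE 0.21, edgeR's adjusted p = 3.65e-11). The rise in the samples labelled Atm-/- was 2.04-fold (log2 fold change 1.03, SE 0.35, edgeR's adjusted p = 0.0177), and the call was lost without WT replicate 2 (log2 fold change 0.73, edgeR's adjusted p = 0.0685) and without replicate 2 of the samples labelled Atm-/- (0.98, edgeR's adjusted p = 0.0585). Mest shares 912 exon bases with Copg2, a coat protein gene on the other strand at 24.0, 43.9 and 31.9 CPM in WT, Sirt6-/- and the samples labelled Atm-/-, and how far reads of Copg2 add to the low Mest levels was not tested. Copg2 and Cep41, a centrosomal gene on the other side, rose in Sirt6-/- by log2 fold changes of 0.87 and 0.86 and in the samples labelled Atm-/- by 0.40 and 0.43.

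Ndn encodes necdin, a member of the MAGE family that binds E2F and p53 and is known in neurons and in mesenchymal cells, and is expressed from the paternal copy (chromosome 7 from 62348277 to 62349928). It had 8, 8 and 2 reads in WT, 1130, 1068 and 1207 in Sirt6-/- and 188, 165 and 144 in the samples labelled Atm-/-. Sirt6-/- was far above both other genotypes, and the samples labelled Atm-/- were all above WT. Ndn was 179-fold higher in Sirt6-/- (log2 fold change 7.48, SE 0.19, edgeR's adjusted p = 7.64e-14) and 24.6-fold higher in the samples labelled Atm-/- (log2 fold change 4.62, SE 0.35, edgeR's adjusted p = 2.23e-08) than in WT. Of the paternal neighbours in the Prader-Willi cluster, Peg12 rose in both lines, from 0.347 CPM in WT to 4.31 in Sirt6-/- (log2 fold change 3.62) and 5.79 in the samples labelled Atm-/- (4.03), from 14, 0 and 19 reads in WT. Without WT replicate 3 these were 4.25 and 4.68, and without WT replicate 2 the first was 3.03. Snrpn, of the splicing machinery, was at 3.14 CPM in WT, 15.2 in Sirt6-/- (log2 fold change 2.28) and 3.84 in the samples labelled Atm-/-, which was not called. Mkrn3, a makorin ubiquitin ligase, was higher in Sirt6-/- (log2 fold change 0.92, edgeR's adjusted p = 0.0129), a call lost without WT replicate 3 (edgeR's adjusted p = 0.0524), and was not called between the samples labelled Atm-/- and WT. Ube3a, maternal in neurons, was at 86.8 CPM in WT and 83.5 in the samples labelled Atm-/-, which was not called, and its small fall in Sirt6-/- (log2 fold change -0.17) was not called with library totals.

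Plagl1 encodes the zinc finger transcription factor named above, expressed from the paternal copy (chromosome 10 from 13090832 to 13131694). Its levels were 0.376, 1.44 and 1.17 CPM in WT, 21.7, 19.8 and 21.9 in Sirt6-/- and 3.95, 6.42 and 4.49 in the samples labelled Atm-/-. The order was the same as for Ndn, with WT low and Sirt6-/- high. Plagl1 was 21.2-fold higher in Sirt6-/- (log2 fold change 4.41, SE 0.24, edgeR's adjusted p = 3.24e-10) and 4.94-fold higher in the samples labelled Atm-/- (log2 fold change 2.31, SE 0.34, edgeR's adjusted p = 3.25e-05) than in WT. Of its relatives that are not imprinted, Plag1, a growth-promoting factor with a like zinc finger domain, rose too, from 0.360 CPM in WT to 11.3 in Sirt6-/- (log2 fold change 4.97) and 3.90 in the samples labelled Atm-/- (3.42). Its other relative Plagl2, named after its values were seen, was lower in Sirt6-/- (-0.36) and in the samples labelled Atm-/- (-0.21), the latter not called when samples were scaled by library totals.

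Of 42 genes listed as neighbours in these clusters, 41 were found in the files. In the comparison of the samples labelled Atm-/- with WT, 27 were tested, with 8 higher, 12 lower and 7 not called and a median log2 fold change of -0.17. Between Sirt6-/- and WT, 28 were tested, with 12 higher, 10 lower and 6 not called and a median of -0.0037. Between the samples labelled Atm-/- and Sirt6-/-, 26 were tested, with 6 higher, 17 lower and 3 not called and a median of -0.48. Of all genes tested, 68.4%, 76.6% and 75.8% were called in these 3 comparisons. Within a cluster the imprinted gene and its neighbours thus went together in some cases (Meg3, Rian and Mirg in the samples labelled Atm-/-, or Peg10 and Sgce). Peg10 and Pon3 went in opposite directions in Sirt6-/-. Grb10 and Ddc were both lower in the samples labelled Atm-/- than in WT, but by unlike sizes (log2 fold changes of -0.97 and -8.21).

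**Figure D3:**
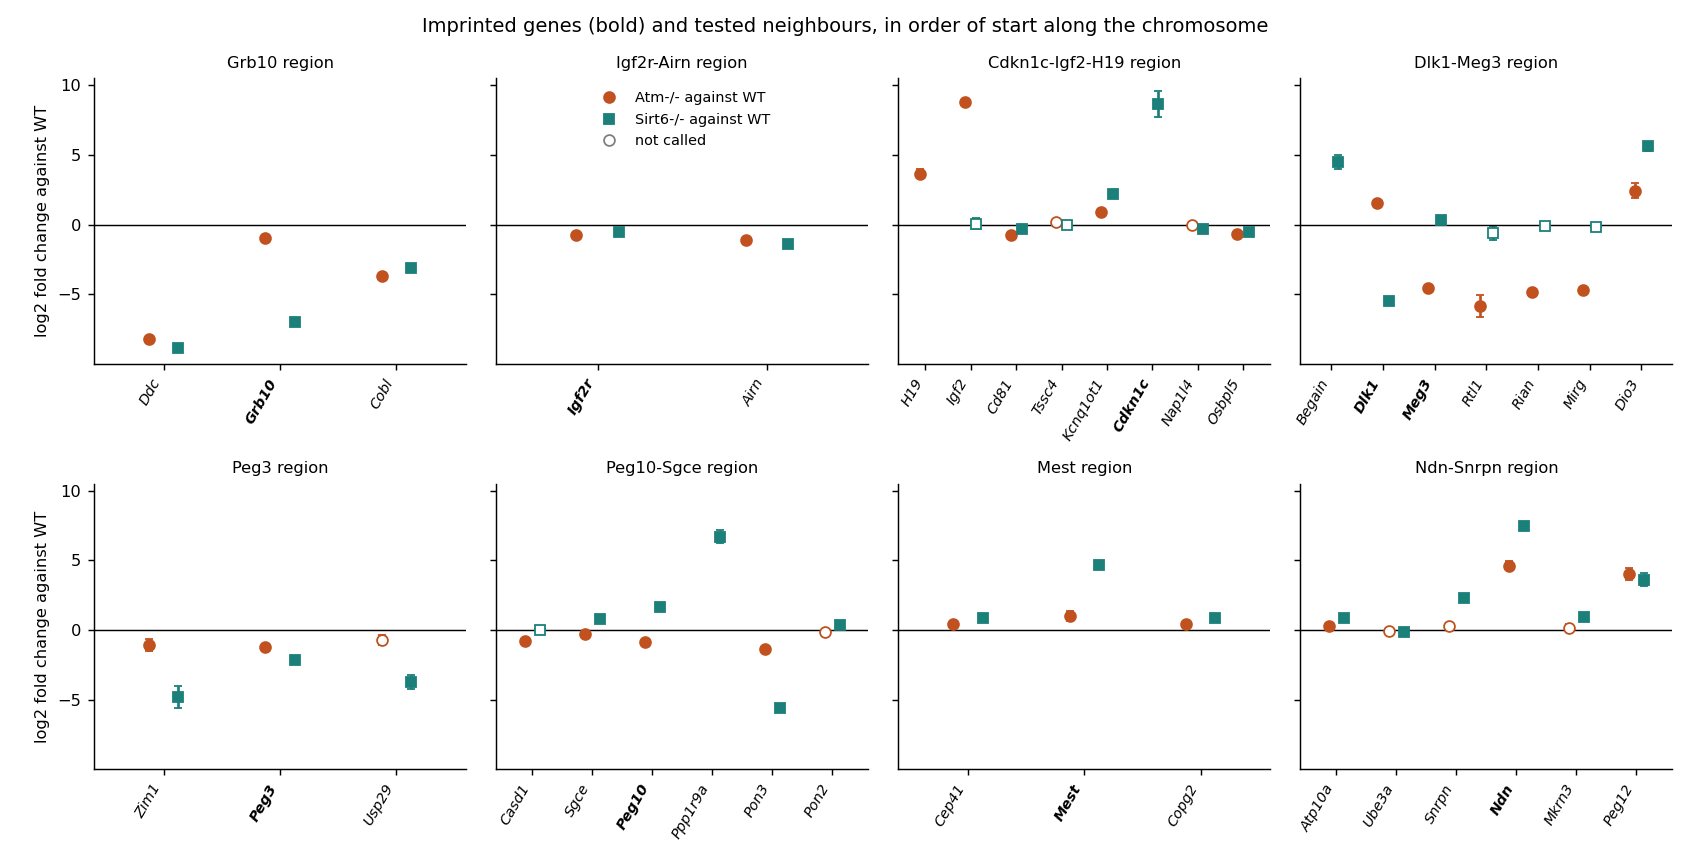
Log2 fold change against WT (vertical axis, mark ± SE) of the imprinted genes (bold) and of their neighbours tested in at least 1 of the 2 comparisons, in the order of their starts along the chromosome, with filled marks for genes called by edgeR's test. Plagl1 has no listed neighbour and is not drawn, and the mark of Cdkn1c rests on 0 reads in WT. The 2 comparisons share the WT samples. In the Dlk1-Meg3 region the samples labelled Atm-/- (circles) fall from Meg3 to Mirg while Sirt6-/- (squares) stays near 0, and in the Cdkn1c-Igf2-H19 region Igf2 stands at 8.82 in the samples labelled Atm-/- alone.

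Most of the changes lay in the upper part of the range found among all genes. The exceptions were Igf2r and Meg3 between Sirt6-/- and WT, and Igf2r in the direct comparison of the lines. Between Sirt6-/- and WT, Ndn and Grb10 changed more than 98.4% and 98.0% of all genes tested, and Dlk1, Mest and Plagl1 more than 96.1%, 94.3% and 93.6%. Cdkn1c, with 0 reads in WT, was given no place there, since its fitted change depends on the prior count. Between the samples labelled Atm-/- and WT the highest were Ndn and Meg3, at 95.8% and 95.7%, followed by Plagl1 at 89.0% and Dlk1 at 84.4%. Igf2r was the lowest of the 9 there, at 70.8%. In the direct comparison of the lines, Dlk1, Grb10 and Meg3 were at 98.6%, 97.7% and 96.4%, and Igf2r was at 29.3%.

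**Figure D4:**
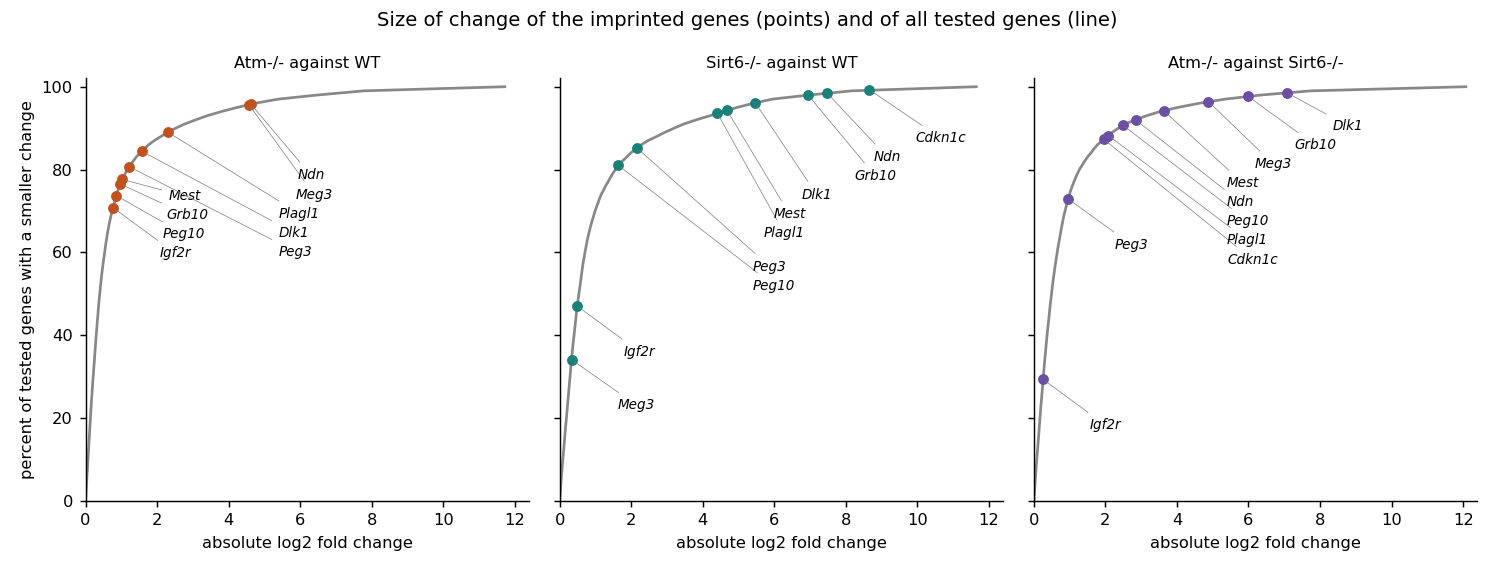
Percent of all tested genes with a smaller change (vertical axis) against the absolute log2 fold change (horizontal axis), for all genes (line) and the imprinted genes (points) in each comparison. The place of Cdkn1c in the second panel depends on the prior count, since WT had 0 reads. In each panel Igf2r or Meg3 is the lowest point, at 70.8% for Igf2r in the first panel, 34.1% for Meg3 in the second and 29.3% for Igf2r in the third.

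Per length of transcript, the order of the genes also differed between the genotypes. On the authors' RPKM scale, WT was led by Grb10 (99.0 ± 1.11, mean ± SD, n = 3), then Igf2r (27.1 ± 1.37), Peg3 (22.5 ± 2.30), Meg3 (14.2 ± 1.58) and Peg10 (12.0 ± 2.12), with Dlk1 at 2.21 ± 0.141 and Mest, Plagl1, Ndn and Cdkn1c at 0.437 or less in every sample. Meg3 was above Peg10 in every WT sample, although their ranges over the samples overlapped. Mest and Plagl1 changed order between samples, as did Plagl1 and Ndn. In Sirt6-/- Peg10 led (39.7 ± 2.94), before Ndn (21.0 ± 0.909), Igf2r (20.4 ± 0.539) and Meg3 (19.02 ± 0.400), and Ndn and Igf2r did not differ beyond their spread. Mest (8.47 ± 0.857), Peg3 (5.33 ± 0.422) and Plagl1 (4.03 ± 0.213) followed, with Grb10 and Cdkn1c level at 0.854 ± 0.0365 and 0.819 ± 0.227 and Dlk1 last at 0.0518. The samples labelled Atm-/- kept Grb10 (56.4 ± 1.14), Igf2r (17.8 ± 0.270) and Peg3 (10.8 ± 1.04) at the head as in WT, but Dlk1 (7.37 ± 0.840) stood level with Peg10 (7.38 ± 0.260). Meg3 was low at 0.673 ± 0.0128, with Cdkn1c last. Mest (0.711 ± 0.0529) was above Meg3 in every one of these samples, although their ranges overlapped.

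The spread between samples of 1 genotype differed from gene to gene. The coefficient of variation over the 3 WT samples was 1.35% for Grb10 and 4.99% for Igf2r, against 44.4% for Mest, 55.5% for Plagl1 and 57.7% for Ndn, which had 2 to 45 reads in each WT sample. In Sirt6-/- it was 2.55% for Meg3 and 4.63% for Ndn, and the widest was Dlk1 at 62.4%. In the samples labelled Atm-/- it ran from 1.37% for Igf2r to 84.2% for Cdkn1c. WT replicate 2 had the lowest value of its group for Igf2r, Meg3, Mest, Peg3 and Peg10, and the highest for Plagl1, Grb10 and, by a small margin, Ndn. Over all genes it also stood apart, with a chi-square per gene of 16.4 and 15.1 against the other WT samples, which gave 6.44 between themselves. Without it every call made for the 10 genes against WT held except that of Mest between the samples labelled Atm-/- and WT, given above.

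Around Grb10 and Igf2r, the genes of the IGF and insulin receptor pathway were read from a list of 10, all of which were tested. Between the samples labelled Atm-/- and WT, 1 was higher, 5 lower and 4 not called. Between Sirt6-/- and WT, 3 were higher, 6 lower and 1 not called. Between the samples labelled Atm-/- and Sirt6-/-, 6 were higher, 3 lower and 1 not called. The share called among all genes tested was 68.4%, 76.6% and 75.8% in these 3 comparisons. Igfbp3, the main carrier of IGF1 in serum, was the strongest of those that fell in both lines, from 1269 CPM in WT to 26.4 in the samples labelled Atm-/- (log2 fold change -5.59) and 1.23 in Sirt6-/- (-10.0). Igf1 was lower in the samples labelled Atm-/- (log2 fold change -2.99) and in Sirt6-/- (-4.14). Igfbp2, another carrier, went up in Sirt6-/- from 2.03 to 811 CPM (log2 fold change 8.64), and its change in the samples labelled Atm-/- was not called (log2 fold change -0.03). Irs2, a docking protein of the insulin receptor, was lower in the samples labelled Atm-/- (log2 fold change -1.32) and in Sirt6-/- (-2.17).

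Of 12 relatives of the 10 genes that are not imprinted, 11 were tested, with 4 higher, 5 lower and 2 not called between the samples labelled Atm-/- and WT, 5 higher, 5 lower and 1 not called between Sirt6-/- and WT, and 5 higher, 5 lower and 1 not called between the samples labelled Atm-/- and Sirt6-/-. Among all genes tested, 68.4%, 76.6% and 75.8% were called, in the same order of comparisons. Grb14, the closest relative of Grb10, was lower in Sirt6-/- (log2 fold change -3.76) and in the samples labelled Atm-/- (-0.81), as Grb10 was. Cdkn1a, which encodes the kinase inhibitor p21, was lower in Sirt6-/- (-2.30) and in the samples labelled Atm-/- (-1.16), whereas its relative Cdkn1c was higher. Dlk2 was lower in Sirt6-/- (-1.26), as Dlk1 was, and its rise in the samples labelled Atm-/- (0.30) lost its call in 4 of 13 alternatives.

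The factors that set or keep imprints and DNA methylation were read from a list of 23, of which 20 were tested. Between the samples labelled Atm-/- and WT, 8 were higher, 5 lower and 7 not called, and between Sirt6-/- and WT 4, 11 and 5. Between the samples labelled Atm-/- and Sirt6-/- the counts were 11, 4 and 5. The shares of all genes called in these comparisons were 68.4%, 76.6% and 75.8%, and the counts of this list lie near them. Dnmt3a, a methyltransferase that lays down new methylation, was lower in the samples labelled Atm-/- (log2 fold change -1.42) and in Sirt6-/- (-1.43). Tet1, which oxidises methylated cytosine, was higher in both, from 0.117 CPM in WT to 2.26 in the samples labelled Atm-/- (log2 fold change 4.23) and 4.47 in Sirt6-/- (5.22, or 4.63 without WT replicate 1). Their relatives did not all go the same way. Dnmt3b was higher in the samples labelled Atm-/- (0.83), a call lost without their replicate 2, and was not called in Sirt6-/-. Tet3 was lower in the samples labelled Atm-/- (-0.43) and in Sirt6-/- (-0.73). Tet2 was higher in both (0.25 and 0.70), the former call kept in 8 of 13 alternatives. Zfp57, whose motif was searched above, was lower in the samples labelled Atm-/- (-0.48) and in Sirt6-/- (-0.53). In the direct comparison of the lines, Ezh2, the methyltransferase of Polycomb complex 2, had the largest difference of this list (1.08). DNA methylation itself was not measured in these samples.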

How the data were processed

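Poly(A) RNA of 9 MEF samples was sequenced. The authors deposited, per sample, a read count for each of 24341 genes, whole numbers without normalization, and RPKM, which they made from those counts with the listed maximum transcript length and 1 read total per sample. That length in bases is the other deposited column used. The submitters' processing notes name the build mm10, and the aligner, the counter and its use of strand are not given in the sources used here. Samples had 32187040 to 33837949 counted reads, so that 3 reads are 0.0856 to 0.0959 CPM, and intervals and floors of this kind cover counting error only. No 2 samples were alike within counting noise.

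The 10 genes and all gene lists were chosen with earlier results of these data known. Each pair of genotypes was fitted over all genes with edgeR 4.0.16 in R 4.3.3 (filterByExpr, TMM, glmQLFit, glmQLFTest, prior count 0.125), with Benjamini-Hochberg adjustment over all genes tested. The SE was the log2 fold change divided by the square root of the F statistic. CPM carry TMM factors over all 9 samples (0.942 to 1.05), and RPKM were used to compare levels between genes. The procedure was tested on simulated counts. The text names the 10 genes, Atm, Sirt6, Trp53, tested neighbours, markers, and of every other list at most the 4 called genes of largest absolute change per comparison. Alternatives were DESeq2 1.42.0 size factors and its Wald test, library totals, no filter or at least 10 counts in every sample, all 9 samples in 1 fit, a replicate block, a prior count of 2, a 2-fold threshold and each sample left out. Positions are RefSeq's on GRCm38.p6 and exon overlaps GENCODE M21's. Sequences are RefSeq promoter windows. The columns of transcript identifiers were not used for tests, and other experiments of the study were not analysed here.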

Additional observations from a re-analysis of the deposited data

How the results depend on the processing

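Of 400 refits of single members (log2 fold changes of the 10 genes under every alternative that could be fitted), 398 kept direction and call, 0 reversed and 2 lost the call. Both were Mest between the samples labelled Atm-/- and WT, with log2 fold changes from 0.73 to 1.37 over the 6 fits that left out 1 sample and edgeR's adjusted p of 0.0685 without WT replicate 2 and 0.0585 without replicate 2 of the samples labelled Atm-/-, where 1 group has 2 samples. The refits with a prior count of 2 could not change a call, since in edgeR this prior acts on the fold change only. The filter of at least 10 counts in every sample left out comparisons of Cdkn1c, Dlk1 and Ndn, which are not among the 400. With a 2-fold threshold the members called lower between the samples labelled Atm-/- and WT went from 5 to 2, since Grb10, Igf2r and Peg10 changed by less. The same threshold took the neighbours called, in the order samples labelled Atm-/- against WT, Sirt6-/- against WT and samples labelled Atm-/- against Sirt6-/-, from 20, 22 and 23 to 12, 12 and 12, the imprint factors from 13, 15 and 15 to 2, 2 and 1, the relatives from 9, 10 and 10 to 3, 4 and 5, the imprinted genes elsewhere from 16, 11 and 15 to 10, 4 and 5, and the IGF genes from 6 and 9 to 3 and 5 in the first and last. With this threshold 22.5%, 29.3% and 25.5% of all genes tested were called, in the same order. At least 10 counts in every sample left 13 neighbours called in the first comparison. Same-numbered samples did not deviate together (r from -0.0201 to 0.0307), so the numbers do not pair them, and the fit with a replicate block called 9, 10 and 10 members, as without the block. Cdkn1c and Ndn in WT and Dlk1 in Sirt6-/- rest on 0 to 10 reads per sample, which limits their folds.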

Other observations

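Imprinted genes outside these clusters were also read, from a list of 22. Between the samples labelled Atm-/- and WT, 18 were tested, with 10 higher, 6 lower and 2 not called. Between Sirt6-/- and WT, 15 were tested, with 8 higher, 3 lower and 4 not called, and between the samples labelled Atm-/- and Sirt6-/-, 17 were tested, with 7 higher, 8 lower and 2 not called. Calls were made for 68.4%, 76.6% and 75.8% of all genes tested in these 3 comparisons. Htr2a, a serotonin receptor gene, was at 0.274 CPM in WT, 5.94 in Sirt6-/- and 6.26 in the samples labelled Atm-/- (log2 fold changes of 4.42 and 4.48 against WT). Slc38a4, an amino acid transporter known from placenta and liver, was at 11.2 CPM in WT and 126 in Sirt6-/- (log2 fold change 3.49, SE 0.07) and 128 in the samples labelled Atm-/- (3.50, SE 0.07). Qpct, a glutaminyl cyclase gene, rose from 0.169 CPM in WT to 2.07 in Sirt6-/- (log2 fold change 3.59) and 1.24 in the samples labelled Atm-/- (2.84).

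Sfmbt2, a Polycomb-related gene, was at 16.7 CPM in WT and 49.2 in Sirt6-/- (log2 fold change 1.56) and at 3.11 in the samples labelled Atm-/-, where it was lower than in WT (log2 fold change -2.43) and than in Sirt6-/- (-3.98). Gatm, of creatine synthesis, was at 0.264 CPM in WT and 9.56 in the samples labelled Atm-/- (log2 fold change 5.15), and Nnat, neuronatin, at 0.371 and 4.28 (log2 fold change 3.51). In Sirt6-/- Gatm had too few reads to be tested and Nnat was not called. Zdbf2 had 0 reads in all WT and Sirt6-/- samples and 15, 21 and 12 in the samples labelled Atm-/-, at least 14.6-fold higher than WT against a floor of 3 reads over the group.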
